A study of Mus musculus with 12 samples.

Results

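The genes described here are 45 genes of the vascular endothelium and the endocardium, taken as a listed set and measured in the cardiac ventricle of mouse embryos at embryonic day 16.5. Where a gene had several probe sets, the brightest by mean log2 signal stands for it, and all 45 were found among the 18193 genes named on the array. Ventricular RNA was hybridised to 12 single-colour arrays, 3 separate ventricles for each of 4 genotypes: wild type, Hdac2-null (labelled Hdac2 knockout), Hopx-null (labelled Hopx knockout) and Hdac2-Hopx double-null. Hdac2 is an enzyme that removes acetyl groups from histones, and Hopx is an atypical homeodomain cofactor that lacks DNA binding of its own. The sources used here do not give the alleles, the strain, the number of litters or whether either deletion was restricted to a cell type. Embryos of both sexes were used, as the level of Xist, an RNA that coats the inactive X, shows below.

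Endothelial cells line every blood vessel, and the endocardium is the endothelium that lines the chambers of the heart. They are held together by junction proteins such as VE-cadherin (Cdh5), they respond to vascular endothelial growth factor (VEGF) and angiopoietins from neighbouring cells through receptor tyrosine kinases, and their identity is maintained by ETS, SoxF and GATA family transcription factors. In the fetal ventricle the endocardium covers the trabeculae while the coronary capillaries spread through the compact wall, and Notch signalling with its Hey targets separates arterial from venous vessels. Whole ventricle contains far more muscle than endothelium. In RNA from such a mixture, fewer endothelial cells and less RNA per endothelial cell cannot be told apart.

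The table gives 1 signal per probe set and array in linear array units. Signals under 82.5 units were raised to that floor before log2 transformation. The floor is a set level, a fraction of the mean signal, and not a measured background. Of the 45 genes, 41 varied above the floor and were tested, and the other 4 were below the floor on all 12 arrays. These were Lyl1, a transcription factor of blood and endothelium (14.2 to 26.7 units), the Notch ligand Dll4 (4.66 to 23.9), the peptide Apln (5.45 to 7.29) and Esm1, a product of vessel sprouts (4.71 to 7.70). Signals under the floor were not read as levels, so these 4 probe sets give nothing to compare, and no statement about tip cells or apelin can be drawn from them. The 6 genes taken as general endothelial markers, Pecam1, Cdh5, Kdr, Tek, Tie1 and Emcn, were all above the floor on every array, and their summed signal ran from 11352 to 13564 units. Signals of different genes come from different probe sets and are not set against each other.

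Hdac2 signal was 4717, 4604 and 5195 in the 3 wild-type ventricles and at most 4.32 in every Hdac2-null and double-null ventricle. Hopx was between 1656 and 2066 in the 6 ventricles labelled as lacking it and between 8577 and 12240 in the other 6. Xist signal marked 5 ventricles, wild type 1 and 2 and the first replicate of every null genotype, at 4988 to 6130 units, and did not exceed 22.2 in the remaining 7. Wild type thus had 2 ventricles with high Xist and each null genotype 1. The log2 ratio of the 3′ to the 5′ Gapdh probe set, a measure of RNA integrity, was highest on wild type 1, at 1.33, with the remaining 11 arrays at 0.842 to 1.07. Each gene was tested with limma in 6 comparisons: each null group against wild type, the double-null group against each single null, and the interaction, which asks whether both losses add on the log2 scale. Adjusted p-values are over all 9667 genes tested, and genes under 0.05 after adjustment are those called.

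With equal weight for every array, limma called 0 of the 41 genes in each of the 6 comparisons, while between 0 and 8 were lower and 0 or 1 higher at an unadjusted p under 0.05. Over all genes, 0.0207% were called in Hdac2-null against wild type, 0.0103% in Hopx-null against wild type, 0.031% in double-null against wild type, 0.0103% in double-null against Hdac2-null, 0.0207% in double-null against Hopx-null and 0% in the interaction. The smallest adjusted p of any endothelial gene was 0.368, for Emcn, Vwf, Mmrn2, Icam2 and Ramp2 in double-null against Hdac2-null ventricles. The 95% interval of the difference lay within a change of 2-fold either way for 40 of the 41 genes in every comparison between groups except Hopx-null against wild type, where it did so for all 41. The exception was Nos3, the endothelial nitric oxide synthase, whose signal ran from 222 to 813 on the 3 Hopx-null arrays alone. A change of 1.5-fold either way lay outside the interval for 37 genes in Hdac2-null against wild type, 35 in Hopx-null against wild type, 32 in double-null against wild type, 28 in double-null against Hdac2-null and 31 in double-null against Hopx-null.

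The differences that came closest to passing involved the double-null ventricles. Emcn and Vwf gave the smallest p-values, and the promoter of Emcn is shown here with those of Gja4, the gene of an arterial gap junction protein, and of the receptor genes Kdr and Tek, so that the start regions of genes with large and small differences can be read side by side. Vwf, Icam2, Mmrn2 and Pecam1 had no entry in the promoter table. The sequences are from RefSeq on assembly GRCm38.p6 and run 5′ to 3′ on the strand of the gene, from 250 bases before its start to 50 after it. Capitals mark every match, on either strand, to 4 short motifs: GGAAGT of the ETS family, AGATAA of the GATA family, ACAATG of the Sox family and the E-box CAGCTG. No match of these motifs overlapped another in the 4 windows.
Emcn: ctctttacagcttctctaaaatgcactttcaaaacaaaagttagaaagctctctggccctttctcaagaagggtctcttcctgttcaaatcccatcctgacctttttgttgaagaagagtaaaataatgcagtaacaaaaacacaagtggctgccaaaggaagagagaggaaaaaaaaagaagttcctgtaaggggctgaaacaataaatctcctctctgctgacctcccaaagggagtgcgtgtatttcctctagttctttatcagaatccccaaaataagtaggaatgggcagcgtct
Gja4: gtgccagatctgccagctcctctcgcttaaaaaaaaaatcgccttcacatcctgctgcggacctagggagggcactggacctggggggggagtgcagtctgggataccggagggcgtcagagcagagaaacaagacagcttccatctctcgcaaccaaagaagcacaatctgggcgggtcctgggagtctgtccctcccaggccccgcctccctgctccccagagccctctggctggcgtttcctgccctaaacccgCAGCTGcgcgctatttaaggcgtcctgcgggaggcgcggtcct
Kdr: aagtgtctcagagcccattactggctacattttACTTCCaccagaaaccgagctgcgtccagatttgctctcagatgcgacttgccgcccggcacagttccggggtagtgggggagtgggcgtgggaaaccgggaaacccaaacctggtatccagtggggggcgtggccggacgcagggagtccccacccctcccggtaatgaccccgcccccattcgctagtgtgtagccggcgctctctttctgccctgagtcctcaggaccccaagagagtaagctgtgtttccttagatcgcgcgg
Tek: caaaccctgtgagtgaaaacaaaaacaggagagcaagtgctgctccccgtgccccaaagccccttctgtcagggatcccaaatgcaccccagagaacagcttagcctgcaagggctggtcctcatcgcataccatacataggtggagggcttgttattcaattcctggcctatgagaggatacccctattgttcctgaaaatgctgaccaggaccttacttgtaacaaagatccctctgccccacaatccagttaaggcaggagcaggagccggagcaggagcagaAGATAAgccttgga

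The Emcn window lies at chr3:137340828-137341127 on the plus strand and held none of the 4 motifs in these exact letters. The Gja4 window, chr4:127313990-127314289 on the minus strand, held an E-box 8 bases after the start. The Kdr window, chr5:75978406-75978705 on the minus strand, held an ETS motif on the opposite strand 217 bases before the start, and the Tek window, chr4:94739039-94739338 on the plus strand, a GATA motif 37 bases after it. Promoters were matched for 26 of the 45 genes, with 31 start sites in all. The ETS motif was in 22.6% of these 31 windows and in 23.8% of all 32851 windows of that length. The GATA motif was in 9.68% against 11.2%, the Sox motif in 9.68% against 12.6% and the E-box in 9.68% against 16.3%. The endothelial windows held these letters at about the same share as other genes or less, and a match is not evidence of binding.

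Junction, adhesion and surface proteins form the largest group, with 14 genes tested. In double-null ventricles 10 of the 14 were lower than in wild type (median log2 -0.15), 9 of 14 lower than in Hdac2-null (median -0.15) and 11 of 14 lower than in Hopx-null ventricles (median -0.13). In the single nulls against wild type the medians were -0.0051 for Hdac2-null and -0.0056 for Hopx-null ventricles. Over all 9667 genes the medians of the 5 comparisons between groups lay between -0.014 and -0.0025. The 3 comparisons with the double-null group share its arrays, so they are not separate evidence.

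Emcn encodes endomucin, a sialomucin of venous, capillary and endocardial cells. Its signal was 1341, 1523 and 1456 in wild type, 1754, 1856 and 1642 in Hdac2-null, 1759, 1497 and 1516 in Hopx-null and 1322, 1392 and 1187 in double-null ventricles. All 3 Hdac2-null arrays were above all 3 wild-type arrays, and all 3 double-null arrays were below every Hdac2-null and Hopx-null array but overlapped wild type. Emcn measured 21.6% more in Hdac2-null than in wild-type ventricles (log2 0.28, SE 0.10, adjusted p = 0.893) and differed by -25.8% in double-null against Hdac2-null ventricles (log2 -0.43, SE 0.10, adjusted p = 0.368; 95% interval -0.64 to -0.22). Against Hopx-null ventricles the difference was -18.2% (log2 -0.29, SE 0.10, adjusted p = 0.538), and against wild type the double-null difference was log2 -0.15, SE 0.10, adjusted p = 0.736. By mean signal the groups ran from Hdac2-null through Hopx-null and wild type to double-null, and each overlapped with its neighbours in that order.

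Icam2, an adhesion molecule at endothelial junctions that is also made by leukocytes and platelets, was at 1561, 1649.8 and 1567 in Hdac2-null and 1294, 1271 and 1112 in double-null ventricles, and these groups did not overlap (log2 -0.38, SE 0.12, adjusted p = 0.368). Wild type spread from 1282 to 1677 and overlapped both. Mmrn2, an extracellular matrix protein that binds the surface receptors Cd93 and Clec14a, was at 6145, 5936 and 6560.2 in wild type, 6643, 7171 and 6361 in Hdac2-null, 5583, 5767 and 5843 in Hopx-null and 5734, 5993 and 5459.9 in double-null ventricles. Every Hopx-null array was below every wild-type array (log2 -0.12, SE 0.058, adjusted p = 1), and the double-null arrays were below all Hdac2-null arrays (log2 -0.23, SE 0.058, adjusted p = 0.368). A second Mmrn2 probe set of 3502 to 4381 units gave log2 -0.19 for that last difference, while a dimmer one of 720.1 to 757 units gave 0.03.

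Gja4 encodes connexin 37. Its signal was 145, 114 and 112 in wild type, 111, 112 and 102 in Hdac2-null, 159, 111 and 111 in Hopx-null and 99.96, 79.9 and 89.9 in double-null ventricles, close to the floor throughout, and 1 double-null array was below it. Every double-null array was below all 9 other arrays. The difference from wild type was -26.5% (log2 -0.44, SE 0.15, adjusted p = 0.657) and that from Hopx-null ventricles -27.7% (log2 -0.47, SE 0.15, adjusted p = 0.538); the floor shrinks both slightly. Gja4 and Vwf were the 2 of 41 genes with this pattern, where 1.57% of all genes had it, and the pattern in the opposite direction was met by 0 of 41 genes against 1.15%. This count was chosen after the values were seen.

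Pecam1, the adhesion molecule CD31 of endothelial cells, platelets and leukocytes, was at 417, 410.2 and 280.3 in wild type, 295, 341 and 322 in Hdac2-null, 392, 342 and 253 in Hopx-null and 308, 254 and 231 in double-null ventricles. The double-null difference from wild type was -27.8% (log2 -0.47, SE 0.20, adjusted p = 0.669), but wild type 3 lay below double-null 1, so the groups overlapped. The wild-type arrays with high Xist, 1 and 2, were the high ones. With log2 Xist signal as a covariate the difference was log2 -0.38 (SE 0.17, adjusted p = 0.815), and without wild type 3 it was -0.66 (SE 0.19, adjusted p = 0.269). Leaving out 1 array at a time gave -0.66 to -0.37. Cdh5, the adhesive protein of endothelial junctions, was nearly level: 1284, 1315 and 1059 in wild type, 1165, 1115 and 1219.8 in Hdac2-null, 1211, 1212 and 1216 in Hopx-null and 1184, 1238 and 1214 in double-null ventricles. Its double-null difference from wild type was log2 -0.0024, SE 0.090, adjusted p = 1, with a 95% interval of -0.20 to 0.20, and from Hdac2-null ventricles it was log2 0.055, SE 0.090, adjusted p = 0.866. In Hdac2-null and Hopx-null against wild type Cdh5 measured log2 -0.058 and -0.00048.

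Among the other surface genes, Cldn5, a tight junction claudin, was at 726, 726 and 717 in wild type and 512, 603 and 647 in double-null ventricles, which did not overlap (log2 -0.31, SE 0.23, adjusted p = 0.76). Hdac2-null and Hopx-null arrays spread from 515 to 1020 units for the same gene. Esam, a junction adhesion molecule, was at 1051 on wild type 1 and 833 on Hopx-null 1 and between 481 and 645 on the other 10 arrays. Plvap, which forms the diaphragms of fenestrated capillaries and is also found in endocardium, measured log2 -0.26, SE 0.15, adjusted p = 1 in Hopx-null against wild type. Its double-null arrays, 1055, 1107 and 955, were all below the Hdac2-null arrays, 1241, 1409 and 1155 (log2 -0.29, SE 0.15, adjusted p = 0.504). Robo4, a receptor that stabilises vessels, measured log2 -0.21, SE 0.15, adjusted p = 0.925 in Hdac2-null against wild type. The progenitor and vessel sialomucin Cd34, the C-type lectin family proteins Cd93 and Clec14a and the TGF-beta coreceptor Eng had double-null differences from wild type between 0.04 and 0.07 on the log2 scale with their brightest probe sets. Dimmer probe sets of Eng (529 to 751 units) and Clec14a (466 to 1010.1 units) gave -0.27 and -0.26 there, the opposite sign.

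**Figure D1:**
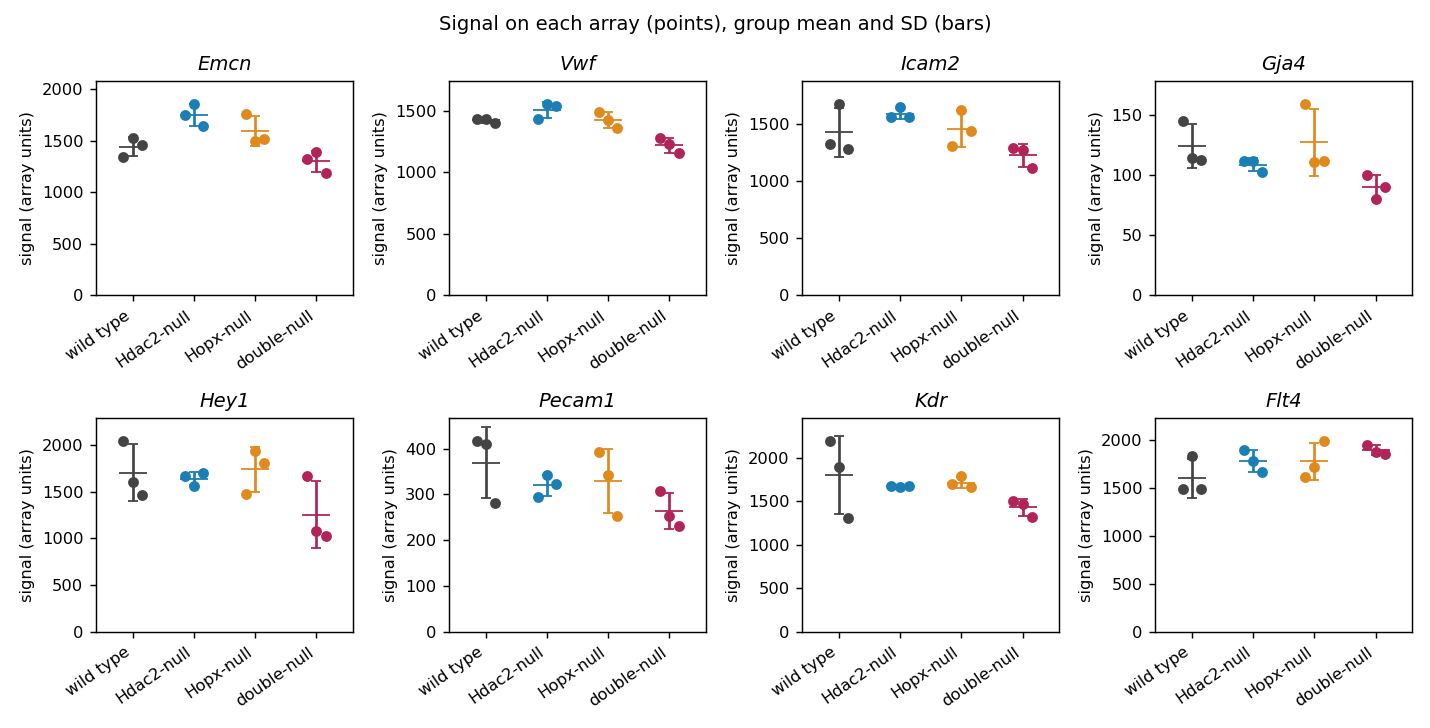
Signal in linear array units (vertical axes, from 0) on each of the 3 arrays per genotype (points) for 8 genes, with the group mean and SD as bars. The double-null points of Vwf and Gja4 lie below all other arrays, those of Emcn and Icam2 lie below the Hdac2-null points, and Pecam1, Kdr and Hey1 have a wild-type or double-null array that overlaps the other group.

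The VEGF receptors gave no common direction. Kdr (VEGFR2), the main signalling receptor for VEGF, was at 2194, 1894 and 1311 in wild type, 1678, 1662 and 1672 in Hdac2-null, 1694, 1785 and 1659.7 in Hopx-null and 1498, 1468 and 1318 in double-null ventricles. The double-null arrays were below all arrays of both single nulls, by log2 -0.23 against Hdac2-null and -0.26 against Hopx-null ventricles. Wild type spread around them, since wild type 3 was the lowest of the 12 arrays and wild type 1 and 2 the highest (log2 -0.30, SE 0.15, adjusted p = 0.671). Without wild type 1 that difference was log2 -0.14 (adjusted p = 0.824) and without wild type 3 it was -0.52 (adjusted p = 0.13). In Hdac2-null and Hopx-null against wild type, Kdr measured -0.075 and -0.040.

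Flt1 (VEGFR1), which binds VEGF but signals weakly, was at 2101, 2045 and 2035 in double-null ventricles, below every wild-type array (2306, 2726 and 2303; log2 -0.24, SE 0.15, adjusted p = 0.731) and every Hdac2-null array (2596, 3051 and 2379; log2 -0.37, SE 0.15, adjusted p = 0.408). Another Flt1 probe set, of 577 to 821 units, gave log2 -0.09 and -0.01 for these differences. Flt4 (VEGFR3), the receptor for VEGF-C on lymphatic and sprouting endothelium, went the other way. It was at 1947, 1876 and 1855 in double-null and 1483, 1835 and 1484 in wild-type ventricles, with no overlap (log2 0.25, SE 0.10, adjusted p = 0.669), and its second probe set gave 0.22. Nrp1, a coreceptor for VEGF and semaphorins, lay between 11575 and 12702 units over the 12 arrays with its brightest probe set, which measured log2 0.077, SE 0.033, adjusted p = 1 in Hopx-null against wild type. Its other 3 tested probe sets gave 0.46 (2305 to 5421 units), 0.017 (10068 to 11672 units) and -0.16 (1016 to 2212 units) in that comparison, so they disagree in size and sign.

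Tek and Tie1 encode the angiopoietin receptor kinase and its partner. Tek was at 7965, 7421 and 7142 in wild type, 7124, 7252 and 7495 in Hdac2-null, 7504, 7279.9 and 6423 in Hopx-null and 6762, 7064 and 7164 in double-null ventricles, and the double-null difference from wild type was log2 -0.10, SE 0.062, adjusted p = 0.712. Against Hdac2-null and Hopx-null ventricles it was -0.059 and -0.012, and the single nulls measured -0.042 and -0.089 against wild type, with Hdac2-null first. The Tie1 double-null arrays, 279, 297 and 300.0, were below all wild-type arrays, 364, 336 and 315 (log2 -0.21, SE 0.14, adjusted p = 0.736), and below all Hdac2-null arrays, 378, 307 and 400.1 (log2 -0.30, SE 0.14, adjusted p = 0.436).

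Of the 4 secreted products, only Vwf and Egfl7 were above the floor. Vwf, von Willebrand factor, is stored in endothelial granules and captures platelets at injured vessels. It was at 1435, 1431 and 1403 in wild type, 1434, 1557 and 1540.0 in Hdac2-null, 1490.0, 1429 and 1359 in Hopx-null and 1279, 1231 and 1156 in double-null ventricles, which puts all 3 double-null arrays below the other 9. The double-null difference was -14.2% from wild type (log2 -0.22, SE 0.073, adjusted p = 0.641; 95% interval -0.38 to -0.061) and -19.1% from Hdac2-null ventricles (log2 -0.31, SE 0.073, adjusted p = 0.368). From Hopx-null ventricles it was -14.3% (log2 -0.22, SE 0.073, adjusted p = 0.538). Egfl7, a matrix protein of growing vessels, measured -0.075, -0.064 and -0.10 in these comparisons. Its other tested probe sets gave 0.046, -0.018 and 0.017 against Hdac2-null ventricles, so their signs differ there. All of them were lower against wild type and against Hopx-null ventricles.

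Among receptors coupled to G proteins and their partners, Ramp2, which pairs with Calcrl to form the adrenomedullin receptor, was at 3528, 3333 and 3101 in double-null and 3734, 3982 and 3634 in Hdac2-null ventricles, with no overlap (log2 -0.19, SE 0.062, adjusted p = 0.368). Calcrl itself measured 0.14 in the same comparison, the opposite sign. Aplnr, the apelin receptor of endocardium and veins, measured log2 -0.17, SE 0.10, adjusted p = 0.925 in Hdac2-null against wild type. A second Aplnr probe set, of 960 to 1488 units, gave 0.012 there. S1pr1, the receptor for sphingosine-1-phosphate, ran from 150 to 356 units, with overlap between all genotypes. Rasip1, which controls vessel lumen formation through small GTPases, was at 272, 272 and 259 in double-null and 232, 242 and 229 in Hopx-null ventricles, without overlap (log2 0.19, SE 0.090, adjusted p = 0.614).

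With their brightest probe sets, most transcription factors measured higher in the double-null ventricles, and their difference from the surface genes was not tested. Of the 10 tested, 7 were higher in double-null than in wild-type ventricles (median log2 0.08), where 4345 of all 9667 genes were. One of the 7 was Nfatc1, at a difference of 0.00052 whose sign turned under several settings. Another was Nr2f2, at 0.078, whose second probe set gave -0.14. Against Hdac2-null ventricles 6 were higher (median 0.11; 4609 of all genes), and against Hopx-null ventricles 7 (median 0.06; 4548 of all genes). The ETS factors Erg, Fli1 and Ets1, which drive endothelial genes, measured 0.10, 0.088 and 0.16 against wild type, and Ets1 log2 0.17, SE 0.10, adjusted p = 0.553 against Hdac2-null ventricles. Tal1, a factor of blood and endocardial development, measured 0.18 against wild type.

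The SoxF factors, which act together in arterial and lymphatic vessels, differed among themselves. Sox7 was at 3243, 3438 and 3067 in wild type and 3337, 3731 and 3874 in double-null ventricles (log2 0.17, SE 0.075, adjusted p = 0.671), and measured log2 0.15, SE 0.075, adjusted p = 0.47 against Hdac2-null ventricles. Sox17 was at 2132, 1957 and 1876 in wild type, 2057, 1912 and 2189.7 in Hdac2-null, 1758, 1853 and 2095 in Hopx-null and 2102, 1807 and 1825 in double-null ventricles, all overlapping. Its double-null differences were log2 -0.058, SE 0.094, adjusted p = 0.891 against wild type, -0.10 against Hdac2-null and 0.0075 against Hopx-null ventricles, and the single nulls against wild type measured 0.046 for Hdac2-null and -0.066 for Hopx-null ventricles. Sox18 measured log2 -0.41, SE 0.17, adjusted p = 0.567 against Hopx-null ventricles, whose arrays overlapped with the double-null arrays.

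Nfatc1, the factor of endocardial cushions and valves, was at 998, 954 and 1058 in wild type, 1049, 1274 and 1111 in Hdac2-null, 919, 925 and 1265 in Hopx-null and 954, 1102 and 959 in double-null ventricles. It measured log2 0.00052, SE 0.13, adjusted p = 1 in double-null and log2 0.19, SE 0.13, adjusted p = 0.925 in Hdac2-null against wild type, 0.032 in Hopx-null against wild type, and -0.19 and -0.031 in double-null against Hdac2-null and Hopx-null ventricles. A dimmer Nfatc1 probe set, of 282 to 453 units, gave -0.28 for double-null and -0.05 for Hdac2-null against wild type, so its probe sets disagree. Nr2f2 (COUP-TFII), the factor of venous and atrial identity, was at 5276, 5696 and 5567 in double-null and 4522, 4738 and 5414 in Hopx-null ventricles (log2 0.18, SE 0.068, adjusted p = 0.547). A second Nr2f2 probe set, of 435 to 706 units, gave 0.01 there. Against wild type and Hdac2-null ventricles this second probe set gave -0.14 and -0.20, where the brightest gave 0.078 and 0.088.

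Hey1, a Notch target of arterial endothelium that is also made by heart muscle cells, had the largest double-null differences of the factors. It was at 2045, 1603 and 1465 in wild type, 1663, 1559 and 1695 in Hdac2-null, 1470.2, 1939 and 1806 in Hopx-null and 1666, 1076 and 1022 in double-null ventricles. Double-null 2 and 3 were the lowest of the 12 arrays, while double-null 1 lay among the other genotypes (log2 -0.46, SE 0.19, adjusted p = 0.669, and log2 -0.50, SE 0.19, adjusted p = 0.547 against Hopx-null ventricles). The receptor Notch4 and the arterial ligand Efnb2 measured 0.17 and -0.0023 against wild type, and Ephb4, the venous receptor for Efnb2, measured -0.30, with double-null 3 the lowest array at 219 units.

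**Figure D2:**
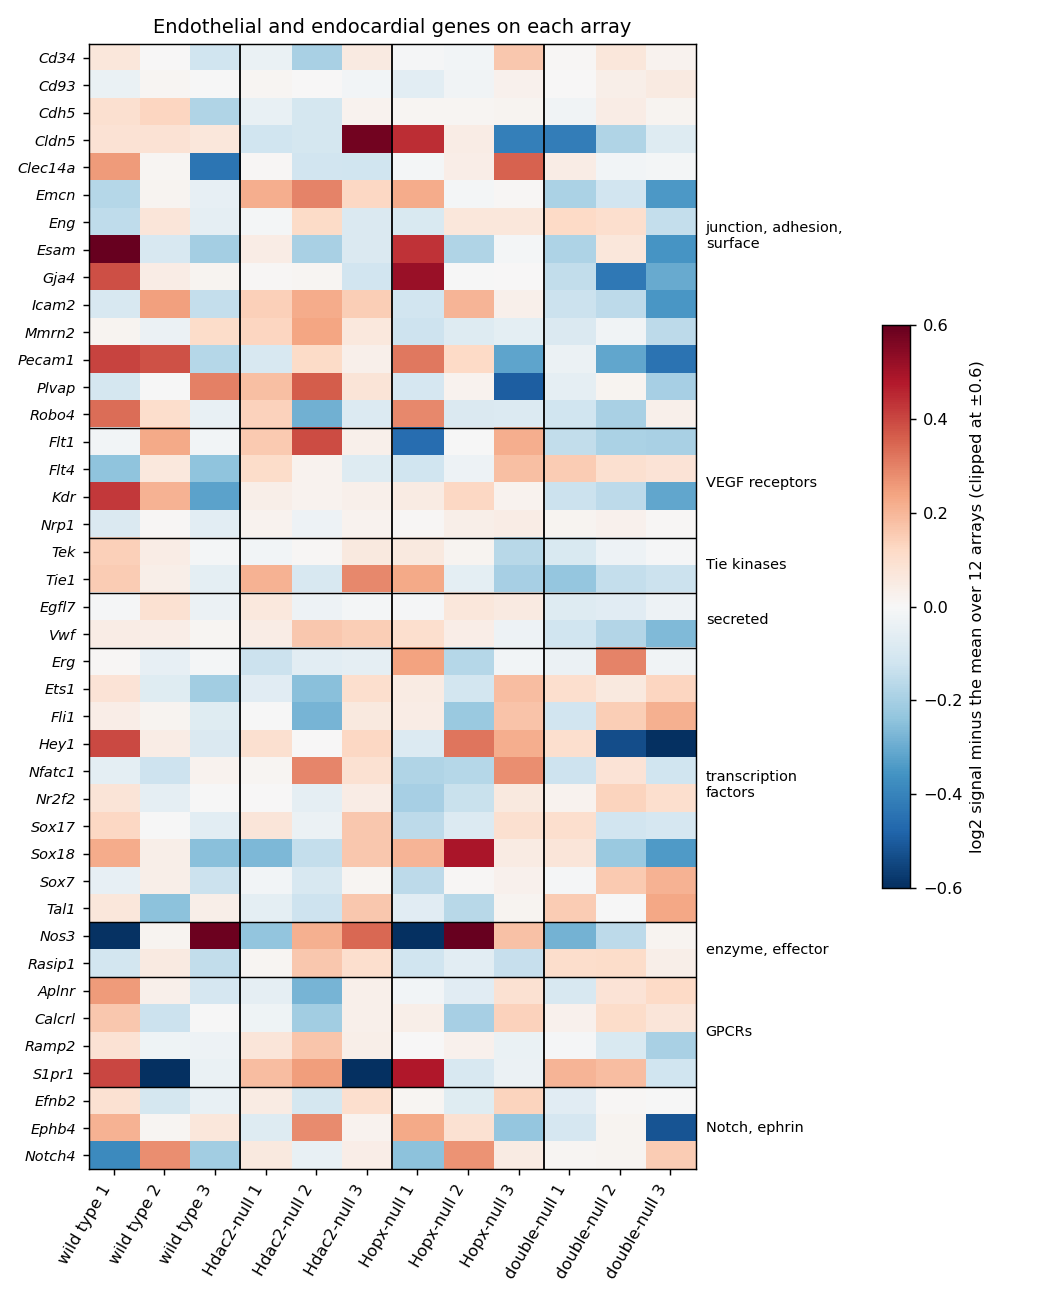
Log2 signal of the 41 tested genes (rows, by role) on the 12 arrays (columns) minus each gene's mean over the arrays, with the colour scale clipped at 0.6 either way. Vwf, Gja4 and Kdr are blue on the double-null arrays, the transcription factors other than Hey1, Nfatc1, Sox17 and Sox18 are mostly pale to red there, and Esam, Gja4, Nos3 and S1pr1 have single arrays that stand out within a genotype.

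As a list, the 41 genes gave 19 lower in Hdac2-null against wild type (median log2 0.01), 20 lower in Hopx-null against wild type (median 0.0020) and 24 lower in double-null against wild type (median -0.06). In double-null against Hdac2-null ventricles 24 were lower (median -0.06), and in double-null against Hopx-null ventricles 26 (median -0.03). These counts rest on the brightest probe set of each gene. Of 22 other tested probe sets of these genes, 13 had the sign of the brightest in Hdac2-null against wild type, 13 in Hopx-null against wild type, 15 in double-null against wild type, 11 in double-null against Hdac2-null, 16 in double-null against Hopx-null ventricles and 12 in the interaction, and none was called. The shares were 46.3%, 48.8%, 58.5%, 58.5% and 63.4%, where 55.1%, 51.1%, 54.4%, 51.6% and 52.5% of all genes were lower in the same comparisons. Without wild type 1 the median of double-null against wild type was -0.0068, and without wild type 3 it was -0.10, so this median rested on which wild-type arrays were used.

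Counts at an unadjusted p under 0.05 from limma were read against all genes. In Hdac2-null against wild type there were 0 lower (background 2.99%) and 1 higher, Emcn (2.12%). In Hopx-null against wild type there were 0 lower (1.43%) and 1 higher, Nrp1 (1.22%). Against wild type, double-null ventricles had 4 lower, Vwf, Gja4, Hey1 and Pecam1 (9.76% of the 41, where 4.3% of all genes were lower), and 1 higher, Flt4 (2.44% against 3.01%). Against Hdac2-null ventricles 8 were lower, Emcn, Vwf, Mmrn2, Icam2, Ramp2, Flt1, Hey1 and Tie1 (19.5% against 4.89%), and 0 higher (6.45%). Against Hopx-null ventricles 5 were lower, Vwf, Gja4, Emcn, Hey1 and Sox18 (12.2% against 5%), and 1 higher, Nr2f2 (2.44% against 3.13%). With weights per array estimated from the data, 9 of the 41 passed in double-null against Hdac2-null ventricles, Emcn, Flt1, Gja4, Hey1, Icam2, Mmrn2, Ramp2, Tie1 and Vwf (smallest adjusted p = 0.0162), together with 951 of all 9667 genes. Double-null 2 then weighed 7.98 and Hdac2-null 1 weighed 3.05, where the other 10 arrays weighed 0.31 to 1.43. With double-null 2 left out and the weights estimated again, 1 gene and 0 of the 41 passed. The genes were not shown to vary independently and were chosen with earlier results in view, so the shares are descriptions.

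Groups that did not overlap were counted in the same way. Double-null arrays were all below wild type for 5 of 41 genes (12.2% against a background of 8.96%) and all above for 1 (2.44% against 6.41%). Against Hdac2-null ventricles 10 genes were lower without overlap (24.4% against 13%) and 1, Erg, higher (2.44% against 13.2%). Against Hopx-null ventricles 6 were lower (14.6% against 8.54%) and 1 higher (2.44% against 6.25%). In Hdac2-null against wild type 2, Erg and Gja4, were lower (4.88% against 5.92%) and 1 higher (2.44% against 3.97%), and in Hopx-null against wild type 1 was lower (2.44% against 2.58%) and 0 higher (0% against 1.98%).

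**Figure D3:**
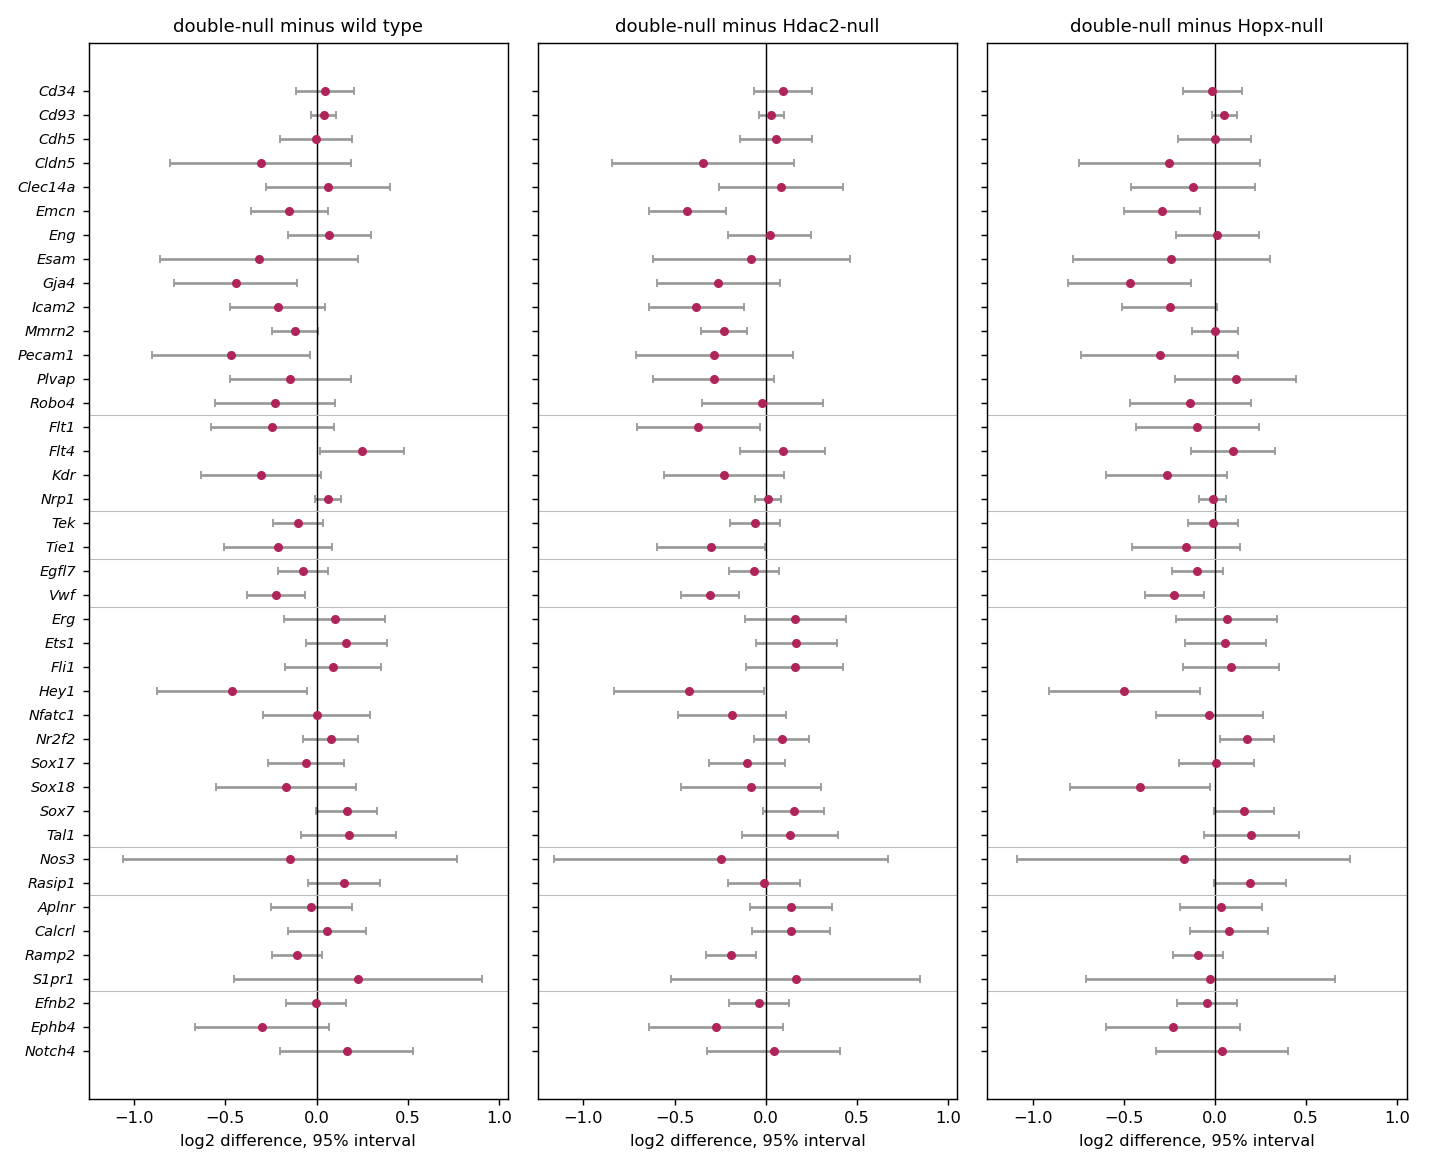
Log2 differences with 95% intervals (horizontal axes) for the 41 tested genes (rows, by role) in double-null against wild type, Hdac2-null and Hopx-null ventricles; the 3 panels share the double-null arrays. Vwf, Gja4, Emcn and Hey1 lie left of 0 in all panels, Cdh5, Tek and Efnb2 lie near 0, and Nos3 has the widest intervals.

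The interaction measured whether the double-null ventricles departed from the sum of both single losses. Of the 41 genes, 27 were below that sum (median log2 -0.08, where the median of all genes was 0.0048), 3 had an unadjusted p under 0.05 in this direction (7.32%, against 2.24% of all genes) and 0 in the other (1.93%). These 3 were Emcn (log2 -0.57, SE 0.13, adjusted p = 0.942), Vwf (log2 -0.31, SE 0.10, adjusted p = 0.942) and Icam2 (log2 -0.42, SE 0.17, adjusted p = 0.942). In the other direction the smallest p-values were those of Nr2f2 (log2 0.19, SE 0.10, adjusted p = 0.942) and Aplnr (log2 0.20, SE 0.14, adjusted p = 0.942). Among the general markers the interaction was -0.12 for Pecam1, -0.19 for Kdr, 0.056 for Cdh5 and 0.030 for Tek, and Nfatc1 and Sox17 measured -0.22 and -0.038. Without wild type 3 the median was -0.03.

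Array by array, the median deviation of the 41 genes from their own means ran from -0.05 on wild type 3 to 0.08 on wild type 1, so wild type held both extremes. For the 14 surface genes the double-null arrays were at -0.07, -0.02 and -0.15, and the other 9 between -0.05 and 0.08. For the 10 transcription factors the double-null arrays were at 0.05, 0.07 and 0.04, inside the range of the others (-0.12 to 0.10). The spread between arrays of a genotype was similar to that of other genes, with a median within-group SD of 0.14 on the log2 scale for these genes and for all genes tested.

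**Figure D4:**
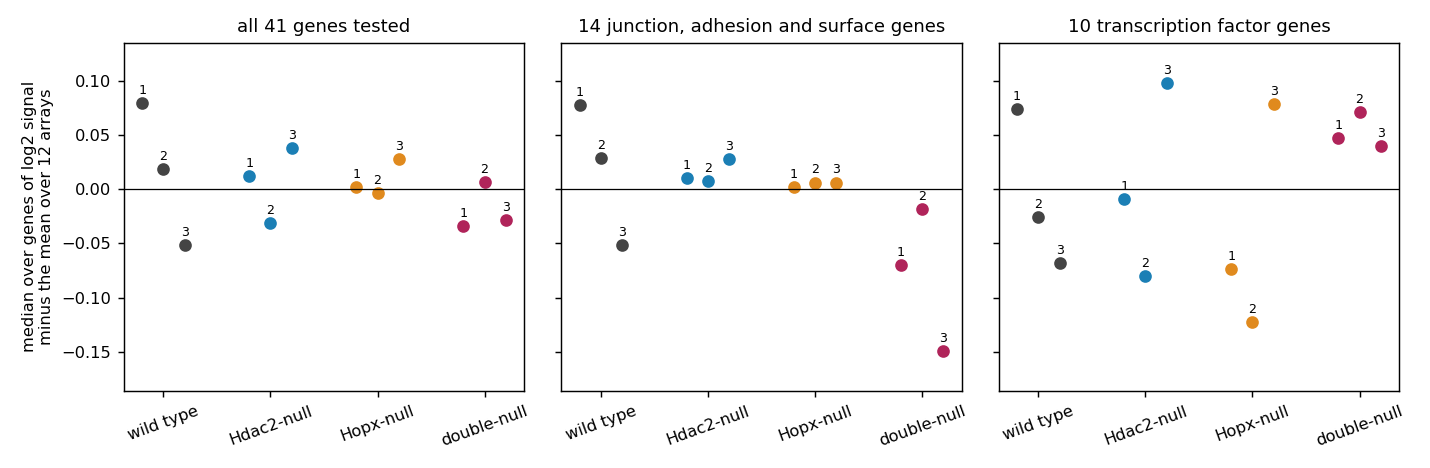
Median over genes of log2 signal minus the gene's mean over 12 arrays (vertical axis) on each array, for all 41 genes, the 14 surface genes and the 10 transcription factors; numbers are replicates. Double-null points of the surface genes lie at -0.07, -0.02 and -0.15, and for all 41 genes wild type holds both the highest and the lowest array.

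Further endothelial genes and pathway partners were counted from lists outside the 45. These lists share some genes, so their counts are not separate. Of 36 pathway genes listed, among them ligands, receptors, transcription factors and enzymes, 24 were tested and none was called in any comparison. In double-null ventricles 9 of the 24 were lower than in wild type (median log2 0.05) and 13 lower than in Hdac2-null ventricles (median -0.02). Vegfa, the ligand of Kdr and Flt1, was at 3843, 3209.9 and 3250.4 in wild type and 3369, 3666 and 3678 in double-null ventricles (log2 0.060, adjusted p = 0.918). Cxcl12, a chemokine of coronary growth, measured -0.29 against wild type (adjusted p = 0.614) and -0.25 against Hdac2-null ventricles. Notch1, the endothelial Notch receptor, and Angpt1, the ligand of Tek, measured -0.26 and -0.40 against Hdac2-null ventricles (adjusted p = 0.381 and 0.393). These named genes do not stand for the list. Against wild type 15 of the 24 were higher, with values from -0.34 to 0.15. Against Hdac2-null ventricles 11 were higher, with values from -0.45 to 0.31.

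Among 23 tested genes of a second endothelial list, none was called. In double-null ventricles 15 were lower and 8 higher than in wild type (median -0.08, values from -0.42 to 0.11). Against Hdac2-null ventricles 13 were lower and 10 higher (median -0.06, values from -0.36 to 0.12). Against Hopx-null ventricles 12 were lower and 11 higher (median -0.03, values from -0.32 to 0.25). Of all genes tested, 54.4%, 51.6% and 52.5% were lower in these comparisons. Podxl, a sialomucin of the luminal surface, measured -0.26, -0.26 and -0.28 against wild type, Hdac2-null and Hopx-null ventricles (adjusted p = 0.621, 0.368 and 0.538). The scavenger receptor Stab1, shared with macrophages, measured -0.29 against wild type (adjusted p = 0.641). Podxl and Stab1 do not stand for the list. Of 7 tested endocardial markers outside the 45, 5 were lower in double-null than in wild-type ventricles (median -0.17) and 5 lower than in Hdac2-null ventricles (median -0.24). Against Hopx-null ventricles 5 were lower (median -0.043), with values from -0.40 to 0.47. In Hopx-null against wild type 4 of the 7 were lower (median -0.096), and in Hdac2-null against wild type 2 (median 0.061). Npr3, the natriuretic peptide clearance receptor of the endocardium, was at 2523, 1967 and 2517 in wild type, 2606, 2741 and 1985 in Hdac2-null and 2129, 2017 and 1928 in double-null ventricles, which overlapped.

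Several of the 45 genes are also made by blood cells, among them Pecam1, Cd34, Cd93, Icam2, Fli1, Ets1, Tal1 and Lyl1. Markers of leukocytes and macrophages numbered 7 in the test, of which 6 were lower in Hdac2-null, 5 in Hopx-null and 7 in double-null than in wild-type ventricles (medians -0.28, -0.12 and -0.25). In double-null against Hdac2-null ventricles 2 of 7 were lower (median 0.05). The summed signal of the 12 leukocyte markers on the array was 15046 to 21758 in wild type, 13268 to 16045 in Hdac2-null, 16949 to 18790 in Hopx-null and 14266 to 16269 in double-null ventricles, and Ptprc, Cd68, C1qa, C1qc and Aif1 were below the floor on all arrays. Of the 7 platelet markers on the array all but Pf4 were below the floor, and Pf4 was at 1856, 1964 and 1205 in wild type, 1225, 961 and 1369 in Hdac2-null and 1249, 1407 and 1474 in double-null ventricles. The double-null differences of Pf4 were log2 -0.25 from wild type, 0.23 from Hdac2-null and -0.26 from Hopx-null ventricles. Only 3 red cell markers were tested and none was called. In double-null against Hdac2-null ventricles 2 of 3 were lower, with values from log2 -2.95 to 0.27 (median -0.87). Against Hopx-null ventricles 3 of 3 were lower (median -0.43). The summed signal of the 8 red cell markers on the array was 9988 to 15434 in Hdac2-null and 10443 to 14712 in double-null ventricles, with Hba-a1, Hba-x, Epor, Klf1 and Gata1 below the floor on all arrays. The summed signal of the 12 cardiomyocyte markers differed little, from 320372 to 330636 units over the 12 arrays. Pericyte and smooth muscle markers summed to 40401 to 43669 in wild type and 42681 to 46050 in double-null ventricles, and fibroblast and epicardial markers to 75729 to 80258 and 74417 to 78799. The part of these cells in the endothelial differences was not tested.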

How the data were processed

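The deposited table holds 1 intensity per probe set on a linear scale for 45101 probe sets and 12 arrays. MAS5 appears among the tools in the submitters' processing notes, without a version. The deposited intensities look unlike plain MAS5 output, with a dense low end (40th percentile 4.76 units) and nearly equal upper quartiles (559 to 587 units), and which method made them is unknown. What signal corresponds to background is therefore unknown too, and the floor is a convention. No further normalisation was applied.

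Signals below a floor of 82.5 units (0.1 times the 2% trimmed mean signal, averaged over arrays) were raised to it, then log2 transformed. By the platform annotation, 34945 probe sets had 1 gene symbol, 932 had more and 9160 had no symbol. Symbols were updated through gene identifiers (34741 matched). The probe set with the highest mean log2 value stood for each of 18193 genes. Of 12433 genes at or above the 40th percentile (4.76 units), 9667 varied above the floor and were tested.

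Limma 3.58.1 in R 4.3.3 was fitted over all 12 arrays with 1 coefficient per genotype (8 residual degrees of freedom) and an intensity trend, with Benjamini-Hochberg adjustment in each of 6 comparisons. The fit was run on simulated data with independent noise and with shifts planted only in genes well above the floor. That run does not cover outlying arrays, genes that vary together or shifts in dim genes. Intervals are 95%, from the moderated SE. With 3 arrays per group, their number limits the precision. The labels call replicates biological. The p-values weigh each difference against a spread between these samples that was estimated over all genotypes.

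Wild-type and Hopx-null arrays of the same number correlated in their deviations from the genotype mean (r of 0.15 to 0.42 across genes). Hdac2-null and Hopx-null arrays did too (0.12 to 0.21). At least 1 of the 3 correlations was 0.1 or lower in double-null against each other group and in Hdac2-null against wild type. Arrays of different numbers were not compared, so these values cannot show that the numbers pair any groups. The labels state no pairing. The main fit held no term for the replicate number, and the replicate block was an alternative fit.

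The genes, lists and tests were chosen with earlier results of these data known. Genes given full values are the 2 with the smallest p in each direction in each comparison and Pecam1, Cdh5, Kdr, Tek, Emcn, Nfatc1, Sox17 and Dll4. Others in the text were chosen after their values were seen. Alternatives concerned the floor, the filter, quantile normalisation, the probe set rule, the arrays fitted, array weights, the replicate block and Xist as a covariate. Leaving out the filter gave the same calls and the same smallest adjusted p of the 41 genes in every comparison. It was no separate check, since genes below the floor on every array do not vary and are dropped either way.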

Additional observations from a re-analysis of the deposited data

Results flagged for a closer look

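In 5 of the 41 genes every null array departed from its control mean in opposite directions for loss of Hdac2 with Hopx present and with Hopx absent. Of all genes tested, 9.29% met this condition for Hdac2 loss, against 12.2% of the 41. Emcn measured log2 0.28 where Hopx was present and -0.29 where it was absent (interaction -0.57, SE 0.13, adjusted p = 0.942 from limma). Vwf measured 0.085 and -0.22 (interaction -0.31), Icam2 0.17 and -0.25 (interaction -0.42), Ramp2 0.083 and -0.092 (interaction -0.17) and Nrp1 0.051 and -0.013 (interaction -0.064). For loss of Hopx, Emcn met the condition, at 0.14 with Hdac2 present and -0.43 with it absent, where 5.43% of all genes did. The interaction did not pass in any of these genes (adjusted p = 0.942 for each), so the differences between backgrounds are not shown.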

How the results depend on the processing

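None of the 41 genes was called under any alternative except array weights in double-null against Hdac2-null ventricles, where 9 were (Emcn at log2 -0.36, adjusted p = 0.0162, and Vwf at -0.26, adjusted p = 0.0174) among 951 genes. Over all genes, the count called in Hdac2-null against wild type was 4 without the floor and 1 with the mean of probe sets, and in Hopx-null against wild type 2 without the floor and 2 with log2(signal + floor). In double-null against Hopx-null ventricles it was 1 without the floor, with log2(signal + floor), with the mean of probe sets, with only the groups compared, with the replicate block and with array weights without double-null 2, and 5 when wild type 1 and Hopx-null 1 were both left out; in the interaction it was 1 with log2(signal + floor). The replicate block changed no call of the 41 genes. Leaving out 1 array at a time gave 2 to 4 genes called in Hdac2-null against wild type (4 without wild type 3), 2 to 8 in double-null against wild type (8 without wild type 3), 1 to 3 in double-null against Hopx-null ventricles and 0 to 1 in the interaction (1 without wild type 3). The median of the 41 genes in double-null against wild type was 0.016 with array weights, -0.0068 when wild type 1 and Hopx-null 1 were both left out, and -0.099 to -0.0068 with 1 array left out, and in the interaction -0.092 to -0.032 with 1 array left out. Of 1416 recomputed values of single genes, 1345 kept their direction and side of the threshold, 2 newly passed, and 69 reversed, all of Pecam1, Cdh5, Kdr, Tek, Nfatc1 or Sox17. With Xist as a covariate the reversed values were Cdh5 at 0.020, Kdr at 0.021 and Nfatc1 at -0.028 in Hopx-null against wild type and Cdh5 at 0.017 and Nfatc1 at -0.056 in double-null against wild type. With array weights and without double-null 2, an alternative chosen after seeing the data, the reversed values were Cdh5 at 0.0097 and Kdr at 0.026 in Hopx-null against wild type and Nfatc1 at -0.063 and Sox17 at 0.0073 in double-null against wild type. With array weights the reversed values were Cdh5 at 0.010 and Kdr at 0.028 in Hopx-null against wild type, Cdh5 at 0.028 in double-null against wild type and Cdh5 at 0.017, Tek at 0.010, Nfatc1 at 0.028 and Sox17 at -0.055 in double-null against Hopx-null. With the mean of all probe sets the reversed values were Nfatc1 at -0.024 in Hopx-null against wild type and Nfatc1 at -0.055 in double-null against wild type. After quantile normalisation the reversed values were Cdh5 at 0.014 in double-null against wild type and Cdh5 at 0.016 in double-null against Hopx-null. When wild type 1 and Hopx-null 1 were both left out the reversed values were Kdr at 0.084 and Tek at 0.0017 in Hdac2-null against wild type, Cdh5 at 0.041, Kdr at 0.13 and Sox17 at 0.040 in Hopx-null against wild type, Cdh5 at 0.038 and Nfatc1 at -0.0025 in double-null against wild type and Tek at 0.033 and Sox17 at -0.047 in double-null against Hopx-null. In Hdac2-null against wild type leaving out 1 array at a time gave Cdh5 -0.16 to 4.4e-05, Kdr -0.29 to 0.084, Tek -0.077 to 0.0017 and Sox17 -0.0019 to 0.10. In Hopx-null against wild type leaving out 1 array at a time gave Pecam1 -0.35 to 0.013, Cdh5 -0.10 to 0.057, Kdr -0.25 to 0.12 and Nfatc1 -0.12 to 0.11. In double-null against wild type leaving out 1 array at a time gave Cdh5 -0.10 to 0.055 and Nfatc1 -0.067 to 0.039. In double-null against Hopx-null leaving out 1 array at a time gave Cdh5 -0.017 to 0.015, Tek -0.080 to 0.033, Nfatc1 -0.11 to 0.12 and Sox17 -0.063 to 0.079. In the interaction leaving out 1 array at a time gave Pecam1 -0.29 to 0.070, Cdh5 -0.0019 to 0.15, Kdr -0.35 to 0.023, Tek -0.038 to 0.074 and Sox17 -0.11 to 0.033. The cause of these changes was not tested. Signals near the floor, as for Gja4, limit what can be read from dim genes.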
